A study of Mus musculus with 6 samples.

Results

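Cells make the purine and pyrimidine nucleotides of RNA and DNA along de novo, salvage and deoxynucleotide routes, and 37 genes of these routes were followed in MLL-AF9 leukemia cells of mice given vehicle or DS-5272. The genes were taken by name, with earlier results of these data known. They were 12 of de novo purine synthesis, 5 of de novo pyrimidine synthesis and 6 of the deoxynucleotide steps. A further 7 of salvage, 3 nucleotide kinases and 4 of nucleoside breakdown complete the 37. Of these, 34 had an entry of their own in the expression table, and 32 of them reached a mean of 1 FPKM (fragments scaled to transcript length and to the mapped fragments of a library) over the 6 mice and were tested together with all other genes that did, 11130 in all. Cda and Upp1 stayed under that level. Pfas, Adsl and Pnp shared an entry with another gene, so their values are given but not counted.

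The cells were C57BL/6J bone marrow progenitors positive for c-Kit, transduced by retrovirus with the MLL-AF9 fusion oncogene and grown by serial transplantation into recipient mice, and both groups carried the oncogene. DS-5272 blocks the binding of MDM2 to p53. It was given by mouth at 80 mg/kg to 3 leukemic mice, 3 others received vehicle, and 24 h later leukemia cells were sorted from bone marrow and their RNA was sequenced. The ages of the mice and the pooling of animals are not given in the sources used here, so each library is treated as 1 mouse and p-values measure the spread between these samples.

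In de novo synthesis, the purine ring is built stepwise on activated ribose (PRPP) up to IMP, which is then turned into AMP or GMP, whereas the pyrimidine ring is closed first and joined to PRPP afterwards to give UMP and then CTP. Salvage enzymes return free bases and nucleosides to the nucleotide pool. Ribonucleotide reductase converts ribonucleotides into deoxyribonucleotides, and thymidylate is made by methylation of dUMP. Many of these genes are known to be expressed most in dividing cells, and several of their products are targets of antimetabolites used in leukemia.

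Of the 32 tested members, 19 were lower in DS-5272-treated cells and 3 were higher at an adjusted p under 0.05 (limma on log2(FPKM + 1), Benjamini-Hochberg adjustment over all 11130 genes), and 10 were not past the threshold. Among all genes tested, 22.0% were lower, 24.2% were higher and 46.3% passed in either direction. The 3 higher members were Samhd1, Tk2 and Ctps2. The groups of mice did not overlap in 25 of the 32 members, against 61.8% of all genes tested. The median log2 fold change of the members was -0.76, and that of all genes tested was 0.04. With the replicate number as a block, 22 members were lower and 5 higher, against 24.9% and 30.3% of all genes and 55.1% in either direction. All 19 lower members kept their call under 4 other scalings. The largest effect of scaling came from setting each library to a common total (TPM), which moved the median of all genes to -0.20, turned the split of all calls from 2697 higher and 2451 lower to 1709 higher and 3565 lower, and gave 2 higher and 23 lower members.

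**Figure D1:**
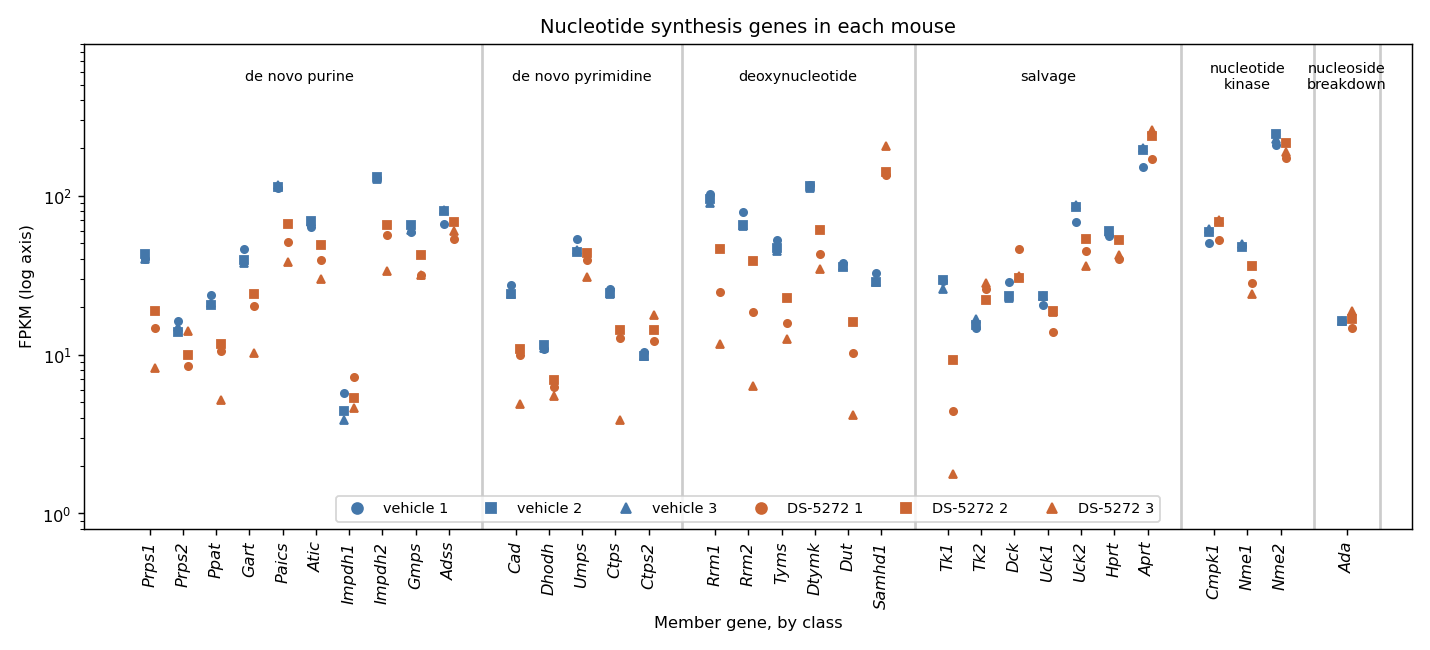
FPKM of the 32 tested members in each mouse on a log axis, grouped by class, with vehicle in blue and DS-5272 in orange and the replicate number as symbol. In the de novo and deoxynucleotide classes most orange points lie below all blue points, the farthest down being DS-5272 replicate 3 for most genes, while Samhd1 lies above, at 135 to 204 FPKM against 28.5 to 32.8.

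Most genes of de novo purine synthesis were lower. Of the 10 tested, 7 were lower and none was higher, against 22.0% and 24.2% of all genes tested. The median log2 fold change was -0.98. The steps from ribose phosphate to IMP (Prps1, Prps2, Ppat, Gart, Paics and Atic) had a median of -1.17, and 5 of these 6 genes were lower. Prps1 and Prps2 encode PRPP synthetases, which make the activated ribose that both ring pathways use. Prps1 measured 39.6, 42.7 and 39.8 FPKM in the vehicle mice and 14.8, 18.9 and 8.22 FPKM in the treated mice, given here and throughout in the order of replicates 1, 2 and 3. All treated mice were thus well below all control mice, and the log2 fold change was -1.55 (SE 0.27, adjusted p = 0.0059). Prps2 measured 16.3, 13.8 and 15.01 FPKM in the vehicle mice and 8.51, 10.00 and 14.1 FPKM in the treated mice. Its groups overlapped through DS-5272 replicate 3, and its log2 fold change of -0.46 (SE 0.18) was not past the threshold (adjusted p = 0.075), although it was without that mouse (-0.64, adjusted p = 0.010) and under all 4 other scalings.

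Ppat encodes the amidotransferase that commits PRPP to purine synthesis. It stood at 23.8, 20.4 and 20.99 FPKM in vehicle mice and at 10.5, 11.6 and 5.16 FPKM in treated mice, a log2 fold change of -1.24 (SE 0.27, adjusted p = 0.011) with no overlap. Paics, whose product carries out a pair of consecutive steps in the middle of the pathway, was the second most abundant member of the class. Its level was 111, 114 and 116 FPKM in vehicle mice and 51.0, 66.8 and 38.4 FPKM in treated mice, and its log2 fold change was -1.15 (SE 0.19, adjusted p = 0.0055). Control mice were within a few FPKM of each other, and the treated mice were spread more widely (SD 14.2 against 2.35 FPKM, n = 3 each). Gart, which encodes a trifunctional enzyme of the early steps, went from 45.9, 39.1 and 37.5 FPKM to 20.3, 24.1 and 10.2 FPKM (log2 fold change -1.20, SE 0.29, adjusted p = 0.017). The Gart call was lost without vehicle replicate 1 or vehicle replicate 2 (adjusted p = 0.054 and 0.051), where its log2 fold change was -1.11 and -1.23. Calls over all genes fell in these fits too, from 2697 higher and 2451 lower to 1971 and 1677 and to 1654 and 1404. Atic, the bifunctional enzyme that closes the ring to IMP, went from 63.4, 69.3 and 68.2 FPKM to 39.5, 49.2 and 29.9 FPKM (log2 fold change -0.77, SE 0.18, adjusted p = 0.014), and its call was lost without vehicle replicate 2 (adjusted p = 0.053).

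The entry that joins Pfas, a further step of the pathway, with the microRNA gene Mir3062 measured 10.99, 9.23 and 8.62 FPKM in vehicle mice and 4.14, 4.63 and 3.33 FPKM in treated mice. The entry of Adsl, which acts both before IMP and on the way to AMP, also holds Mir5113 and Tnrc6b, and it lay between 42.1 and 47.0 FPKM in vehicle mice and between 32.4 and 34.5 FPKM in treated mice. Groups did not overlap in either entry, and the log2 fold changes were -1.08 (SE 0.14, adjusted p = 0.0033) and -0.41 (SE 0.09, adjusted p = 0.011).

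After IMP, Impdh2 and Gmps on the way to GMP were lower, and Adss on the way to AMP was not past the threshold. Impdh2 encodes the main IMP dehydrogenase of dividing cells, the entry step to GMP, and was the most abundant member of the class. It measured 128, 131 and 128 FPKM in vehicle mice and 56.5, 65.2 and 33.6 FPKM in treated mice, 2.49-fold lower on the mean FPKM scale, with a log2 fold change of -1.35 (SE 0.23, adjusted p = 0.0060). Gmps, the next enzyme, went from 59.0, 65.7 and 61.1 FPKM to 31.5, 42.0 and 31.6 FPKM (log2 fold change -0.82, SE 0.14, adjusted p = 0.0054). Both genes had every treated mouse below every control mouse. Adss, the first enzyme from IMP towards AMP, measured 66.7, 80.6 and 81.4 FPKM in vehicle mice and 53.1, 68.6 and 59.9 FPKM in treated mice. These groups overlapped, and the log2 fold change of -0.33 (SE 0.13) had an adjusted p of 0.083, or 0.027 with the replicate block. Impdh1, the second IMP dehydrogenase gene, was low in all mice (3.89 to 5.72 FPKM with vehicle, 4.62 to 7.26 FPKM with DS-5272), and its log2 fold change was 0.24 (SE 0.19, adjusted p = 0.33).

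Ppat and Paics are neighbours on chromosome 5 and are transcribed away from each other, and the genes overlap head to head by 272 bases on opposite strands (GENCODE M21, GRCm38). Their promoter windows, 250 bases before and 50 bases after the transcription start in RefSeq (GRCm38.p6), are shown with that of Impdh2, the most abundant of the 3 members (Atic, Impdh2 and Dtymk) that held all 3 motifs searched. The Impdh2 window was chosen after its values were seen. Capitals mark motif matches on either strand: CACGTG (the E-box bound by MYC and related factors), TTCGCGC with the variant TTGGCGC and the variant TTCCCGC (forms of the E2F site), and CCAAT (the NF-Y box). Ppat lies at chr5:76951529-76951828 on the minus strand and has 3 E2F-type matches. Paics lies at chr5:76951052-76951351 on the plus strand and has an E-box and a CCAAT box. Impdh2 lies at chr9:108560186-108560485 on the plus strand and has an E-box and, overlapping each other just after the start, a CCAAT box on the opposite strand and an E2F-type match.
Ppat: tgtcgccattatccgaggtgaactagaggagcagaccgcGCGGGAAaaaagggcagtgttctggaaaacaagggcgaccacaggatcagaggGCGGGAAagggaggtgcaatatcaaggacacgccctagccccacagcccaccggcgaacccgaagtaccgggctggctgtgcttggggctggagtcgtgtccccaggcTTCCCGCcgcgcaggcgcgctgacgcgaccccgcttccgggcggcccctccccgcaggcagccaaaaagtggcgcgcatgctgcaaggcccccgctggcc
Paics: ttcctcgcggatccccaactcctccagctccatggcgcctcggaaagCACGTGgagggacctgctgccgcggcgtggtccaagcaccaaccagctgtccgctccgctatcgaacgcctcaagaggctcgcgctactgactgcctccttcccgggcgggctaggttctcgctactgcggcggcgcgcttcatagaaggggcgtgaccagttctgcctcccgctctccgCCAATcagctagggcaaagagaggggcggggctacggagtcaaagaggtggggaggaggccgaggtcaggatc
Impdh2: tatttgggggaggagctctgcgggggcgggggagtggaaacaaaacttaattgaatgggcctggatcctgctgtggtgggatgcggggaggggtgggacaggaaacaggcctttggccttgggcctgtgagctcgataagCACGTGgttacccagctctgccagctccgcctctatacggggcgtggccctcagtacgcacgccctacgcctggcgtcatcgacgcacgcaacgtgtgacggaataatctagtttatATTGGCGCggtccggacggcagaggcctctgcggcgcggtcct

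Of the 35 members found in the promoter table, 6 had an E-box (17.1%), 9 an E2F-type match (25.7%) and 12 a CCAAT box (34.3%), against 8.09%, 9.2% and 41.1% of all 27025 genes in it. Pfas and Dhodh were not matched. All 6 members with an E-box (Paics, Atic, Impdh2, Tyms, Dtymk and Nme1) were among the 18 matched members that were lower. An E2F-type match was found in 7 of these 18 (Prps1, Ppat, Atic, Impdh2, Ctps, Rrm1 and Dtymk) and a CCAAT box in 9. Of the 10 matched members not past the threshold, none had an E-box, 2 had an E2F-type match (Prps2 and Adss) and 1 had a CCAAT box (Ada). The 3 higher members had a CCAAT box in 1 case (Ctps2) and no other match. Left out of this split are the matched members Adsl and Pnp, which share an entry, and Cda and Upp1, which stayed under the filter. Of these, Pnp had a CCAAT box. A match describes letters within the window and was not tested as a binding site, and these shares were not tested against each other. The 27025 genes were taken whether or not they reached the expression filter. No motif shares were derived for the genes tested, or for all genes that were lower or not past the threshold.

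Of the 5 genes of de novo pyrimidine synthesis, 3 were lower and 1 was higher, against 22.0% and 24.2% of all genes tested. The median log2 fold change was -0.75. Cad encodes the trifunctional enzyme of the opening steps and measured 27.2, 24.2 and 24.0 FPKM in vehicle mice and 9.93, 10.9 and 4.90 FPKM in treated mice. The treated mice were far below the controls, 2.93-fold on the mean FPKM scale, and the log2 fold change was -1.51 (SE 0.26, adjusted p = 0.0061). Dhodh, the mitochondrial enzyme that oxidizes dihydroorotate, went from 10.8, 11.5 and 11.01 FPKM to 6.24, 6.91 and 5.46 FPKM, a log2 fold change of -0.75 (SE 0.11, adjusted p = 0.0040) with tight values in both groups. Umps, which finishes UMP, was less clear, at 53.3, 44.0 and 45.7 FPKM with vehicle and 39.6, 43.3 and 30.8 FPKM with DS-5272. Its groups did not overlap, but the gap between the nearest mice was small, and the log2 fold change of -0.33 (SE 0.15) was not past the threshold (adjusted p = 0.11).

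The CTP synthetases Ctps and Ctps2 moved apart. Ctps measured 25.9, 24.2 and 24.2 FPKM in vehicle mice and 12.8, 14.3 and 3.87 FPKM in treated mice, with DS-5272 replicate 3 far below the other treated mice. Its log2 fold change was -1.35 (SE 0.42, adjusted p = 0.035), which became -0.82 without that mouse, and the call was lost when any vehicle mouse was left out (adjusted p from 0.082 to 0.090). The Ctps call was also lost without the filter on low FPKM (adjusted p = 0.071). Ctps2 measured 10.4, 9.80 and 9.73 FPKM in vehicle mice and 12.2, 14.3 and 17.7 FPKM in treated mice, with no overlap and a log2 fold change of 0.50 (SE 0.14, adjusted p = 0.027). The Ctps2 call was lost without any 1 vehicle mouse (adjusted p from 0.060 to 0.088), without DS-5272 replicate 2 (0.056), and at a common total (log2 fold change 0.25, adjusted p = 0.12).

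The Cad promoter window, at chr5:31054530-31054829 on the plus strand (RefSeq, GRCm38.p6), held none of the 3 motifs and is shown because Cad fell most among the pyrimidine genes.
Cad: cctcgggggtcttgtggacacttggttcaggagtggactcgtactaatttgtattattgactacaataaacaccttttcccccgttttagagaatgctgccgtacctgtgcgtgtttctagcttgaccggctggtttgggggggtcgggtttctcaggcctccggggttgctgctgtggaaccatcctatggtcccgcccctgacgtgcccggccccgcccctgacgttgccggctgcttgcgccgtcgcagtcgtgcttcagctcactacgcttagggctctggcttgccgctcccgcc

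**Figure D2:**
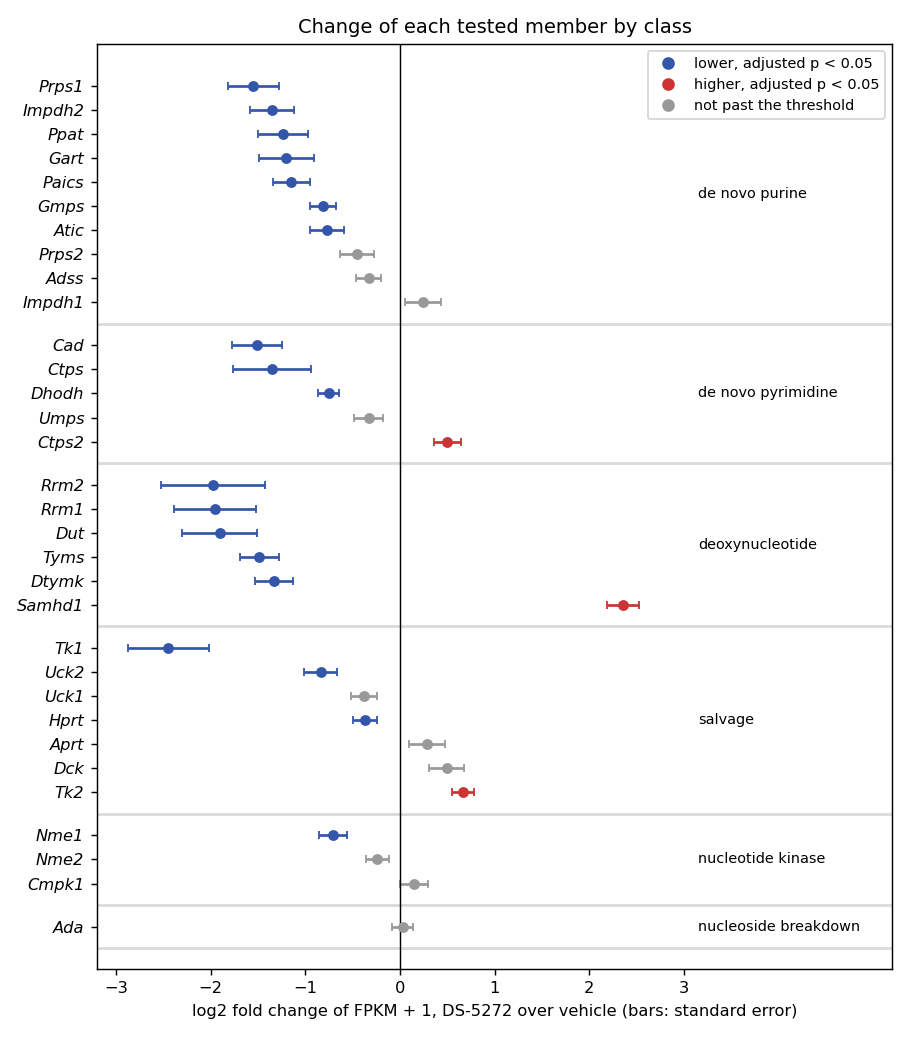
Log2 fold change of FPKM + 1, DS-5272 over vehicle, of the 32 tested members by class, with points for the estimates and bars for their standard errors (limma, 3 mice per group). Tk1, Rrm2, Rrm1 and Dut lie farthest to the left, from -2.45 to -1.90, and Samhd1 stands alone on the right at 2.35.

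The deoxynucleotide steps showed the lowest class median, -1.69, with 5 of 6 members lower and Samhd1 higher. Over all genes tested, 22.0% were lower and 24.2% higher. Rrm1 and Rrm2 encode the large and the small subunit of ribonucleotide reductase. Rrm1 measured 102, 94.9 and 90.5 FPKM in vehicle mice and 24.8, 46.5 and 11.7 FPKM in treated mice (log2 fold change -1.95, SE 0.43, adjusted p = 0.012). Rrm2 measured 78.7, 65.0 and 64.8 FPKM in vehicle mice and 18.5, 38.6 and 6.36 FPKM in treated mice (log2 fold change -1.98, SE 0.55, adjusted p = 0.026). In both subunits the treated mice kept the same order, with replicate 2 least and replicate 3 most below the controls, and no treated mouse reached a control. The Rrm2 call was lost without any 1 vehicle mouse (adjusted p from 0.062 to 0.074), and without DS-5272 replicate 3 its log2 fold change was -1.34. Rrm2b, the small subunit known as a p53 target, is not a member but belongs to the same reaction. It stood at 6.30, 6.00 and 5.91 FPKM in vehicle mice and at 5.89, 5.82 and 6.66 FPKM in treated mice, a log2 fold change of 0.01 (SE 0.10, adjusted p = 0.95) whose sign turned under 3 of 4 other scalings.

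Each of the 3 enzymes around thymidylate was lower. Tyms, thymidylate synthase, went from 52.5, 47.1 and 45.0 FPKM to 15.8, 22.8 and 12.5 FPKM (log2 fold change -1.49, SE 0.21, adjusted p = 0.0036). Dut, the dUTPase that yields dUMP and keeps uracil out of DNA, went from 37.9, 35.4 and 36.2 FPKM to 10.3, 16.1 and 4.19 FPKM (log2 fold change -1.90, SE 0.40, adjusted p = 0.010). Dtymk, thymidylate kinase, was among the most abundant members and went from 117, 114 and 112 FPKM to 43.2, 61.0 and 34.6 FPKM (log2 fold change -1.33, SE 0.20, adjusted p = 0.0040). In each of these genes, all treated mice lay below all vehicle mice, and the mean FPKM was 2.48-fold to 3.58-fold lower. These calls were kept when any 1 mouse was left out.

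Samhd1 encodes the hydrolase that breaks deoxynucleoside triphosphates down and is known to be abundant in non-dividing myeloid cells. It measured 32.8, 28.8 and 28.5 FPKM in vehicle mice and 135, 142 and 204 FPKM in treated mice. Every treated mouse was far above every control, DS-5272 replicate 3 most of all. The mean rose 5.33-fold, the log2 fold change was 2.35 (SE 0.17, adjusted p = 0.00069), and it stayed between 2.17 and 2.47 when any 1 mouse was left out. The promoter windows of Rrm2 (chr12:24708004-24708303, plus strand) and Samhd1 (chr2:157135047-157135346, minus strand; RefSeq, GRCm38.p6) are set side by side as those of a dNTP-making and a dNTP-degrading gene that changed in opposite directions. That of Rrm2 has a CCAAT box and that of Samhd1 none of the motifs.
Rrm2: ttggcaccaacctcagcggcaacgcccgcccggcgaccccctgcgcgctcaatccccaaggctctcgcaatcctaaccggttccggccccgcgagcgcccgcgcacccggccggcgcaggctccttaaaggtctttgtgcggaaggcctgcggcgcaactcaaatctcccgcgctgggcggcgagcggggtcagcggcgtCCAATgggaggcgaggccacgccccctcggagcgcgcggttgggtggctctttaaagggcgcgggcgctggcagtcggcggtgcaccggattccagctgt
Samhd1: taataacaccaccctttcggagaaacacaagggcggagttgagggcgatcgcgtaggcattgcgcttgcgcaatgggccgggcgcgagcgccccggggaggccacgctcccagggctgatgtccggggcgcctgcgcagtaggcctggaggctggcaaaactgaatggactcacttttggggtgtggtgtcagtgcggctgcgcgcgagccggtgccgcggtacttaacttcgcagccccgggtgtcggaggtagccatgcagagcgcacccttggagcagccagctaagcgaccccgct

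Salvage genes were mixed. Of 7 tested members, 3 were lower (Tk1, Uck2 and Hprt) and 1 was higher (Tk2), and the class median was -0.37, or -0.25 without DS-5272 replicate 1. Over all genes tested, 22.0% were lower, 24.2% were higher and 46.3% passed in either direction. Tk1, the cytosolic thymidine kinase known to be made in S phase, fell most of all members: it measured 29.2, 29.6 and 26.0 FPKM in vehicle mice and 4.42, 9.22 and 1.78 FPKM in treated mice. The treated mice differed several-fold among themselves, yet all were below the controls (log2 fold change -2.45, SE 0.43, adjusted p = 0.0062). Tk2, the mitochondrial thymidine kinase, went the other way, from 14.6, 15.4 and 16.7 FPKM to 25.9, 22.0 and 28.3 FPKM with no overlap (log2 fold change 0.67, SE 0.12, adjusted p = 0.0066). Dck, the deoxycytidine kinase that also activates cytarabine, measured 28.4, 23.2 and 22.6 FPKM in vehicle mice and 46.3, 30.1 and 31.1 FPKM in treated mice. Its groups did not overlap, with DS-5272 replicate 1 the highest, and the log2 fold change of 0.49 (SE 0.19) had an adjusted p of 0.066, or 0.012 with the replicate block.

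The uridine-cytidine kinases Uck1 and Uck2 return ribonucleosides to UMP and CMP. Uck2 went from 68.0, 84.7 and 87.7 FPKM to 44.8, 53.4 and 35.8 FPKM (log2 fold change -0.84, SE 0.17, adjusted p = 0.0098). Uck1 went from 20.4, 23.4 and 23.2 FPKM to 13.8, 18.9 and 18.4 FPKM, without overlap (log2 fold change -0.38, SE 0.14, adjusted p = 0.063, or 0.024 with the replicate block). Uck1 also passed under all 4 other scalings.

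Hprt and Aprt salvage the purine bases, Hprt hypoxanthine and guanine and Aprt adenine. Hprt measured 55.7, 60.0 and 58.8 FPKM in vehicle mice and 40.0, 52.9 and 42.4 FPKM in treated mice. This small difference just passed (log2 fold change -0.37, SE 0.12, adjusted p = 0.048), and the call was lost in turn without vehicle replicates 1, 2 and 3 and DS-5272 replicates 1 and 3 (adjusted p from 0.089 to 0.15). The Hprt call was also lost without the filter on low FPKM (adjusted p = 0.062) and without the trend (0.056). Aprt was one of the most abundant members, at 151, 193 and 199.9 FPKM with vehicle and 170.3, 239 and 258 FPKM with DS-5272. Its groups overlapped, and the log2 fold change of 0.28 (SE 0.19) had an adjusted p of 0.26, or 0.034 with the replicate block, and changed sign under quantile normalization.

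Set side by side, de novo synthesis (purine and pyrimidine) had 10 of 15 members lower and 1 higher with a median log2 fold change of -0.82, and the salvage and deoxynucleotide steps together had 8 of 13 lower and 2 higher with a median of -0.84. The shares over all genes tested were 22.0% lower, 24.2% higher and 46.3% in either direction. Within the salvage and deoxynucleotide steps, the deoxynucleotide steps had the lowest median of all classes (-1.69) and salvage a median nearer 0 (-0.37). With Tk1, Tk2 and Dck counted as deoxynucleotide genes, that class had a median of -1.49 over 9 genes, and the 4 remaining salvage genes had a median of -0.38. Differences between the classes were not tested.

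**Figure D3:**
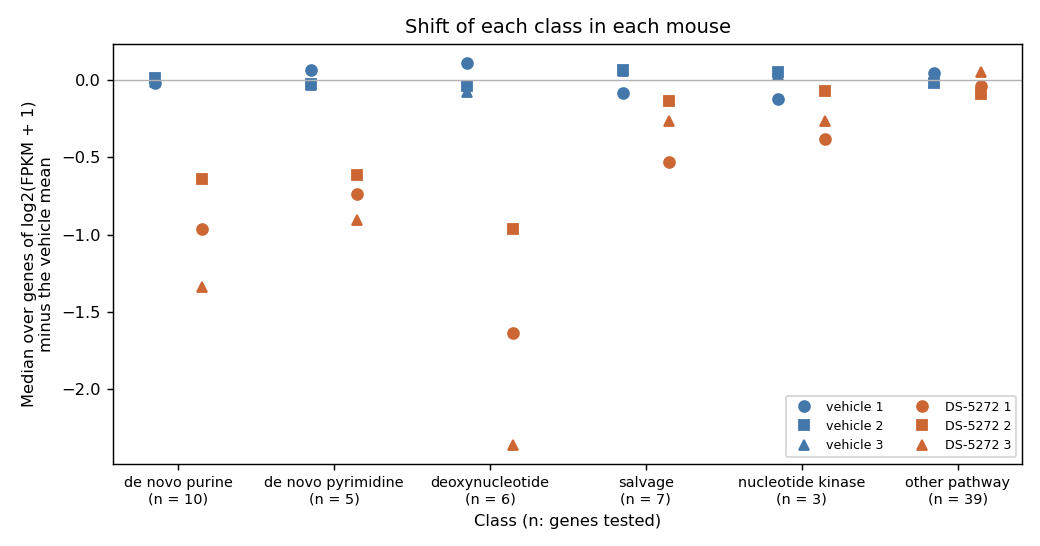
Median over the tested genes of a class of log2(FPKM + 1) minus the mean of the vehicle mice, for each mouse, with the number of genes under each class. In the deoxynucleotide class the treated mice lie at -1.64, -0.96 and -2.36 (replicates 1, 2 and 3), in the salvage class at -0.53, -0.13 and -0.26, and the further pathway genes lie near 0 in all mice.

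The treated mice kept an order in most of these genes. In all 19 lower members, every treated mouse was below every vehicle mouse, and DS-5272 replicate 2 was the highest of the 3 treated mice. DS-5272 replicate 3 was the lowest in 17 of them and replicate 1 in 2. These 19 were picked by their call on the same values, so their separation is no further support for it. Over all genes tested, the groups did not overlap in 61.8%. How many of all called genes keep such an order of treated mice was not counted. In the 3 higher members, replicate 3 was the highest treated mouse. The median shift of the de novo purine genes was -0.96, -0.64 and -1.34 in DS-5272 replicates 1, 2 and 3, and that of the de novo pyrimidine genes was -0.74, -0.61 and -0.90. Cdkn1a, the p53 target that encodes p21, measured 14.8, 28.1 and 25.5 FPKM in vehicle mice and 32.3, 117 and 485 FPKM in treated mice, so replicate 3 had the highest level and replicate 1, not replicate 2, the lowest of the treated mice. Its log2 fold change of 2.43 (SE 0.89) had an adjusted p of 0.061, or 0.014 with the replicate block.

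The nucleotide kinases hand on phosphate from mono- to diphosphates and from di- to triphosphates. Nme1, a nucleoside diphosphate kinase, was lower, at 48.1, 47.2 and 49.5 FPKM with vehicle and 28.3, 35.9 and 24.1 FPKM with DS-5272 (log2 fold change -0.71, SE 0.15, adjusted p = 0.010). Nme2, its neighbour on chromosome 11 and the most abundant member, overlapped between groups at 207, 243 and 228 FPKM with vehicle and 173, 215 and 188 FPKM with DS-5272. Its log2 fold change of -0.24 (SE 0.12) had an adjusted p of 0.16, or 0.048 with the replicate block. Cmpk1, UMP-CMP kinase, lay between 50.4 and 61.7 FPKM with vehicle and between 52.4 and 69.8 FPKM with DS-5272 (log2 fold change 0.15, SE 0.15, adjusted p = 0.43), and its sign turned at a common total and under quantile normalization.

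None of the nucleoside breakdown genes was lower at the threshold. Ada, adenosine deaminase, stood at 16.3, 16.2 and 16.3 FPKM in vehicle mice and at 14.7, 16.7 and 18.8 FPKM in treated mice, around the control level on both sides (log2 fold change 0.03, SE 0.11, adjusted p = 0.84, with a negative sign under the 4 other scalings). The entry shared by Pnp, purine nucleoside phosphorylase, and its paralog Pnp2 rose from 49.0, 51.0 and 51.7 FPKM to 76.4, 59.9 and 66.1 FPKM (log2 fold change 0.40, SE 0.11, adjusted p = 0.027). Cda (cytidine deaminase) and Upp1 (uridine phosphorylase) were nearly silent with vehicle, at up to 0.162 and 0.133 FPKM, and were at 0.404 to 0.705 FPKM and 0.394 to 0.909 FPKM with DS-5272. All treated mice were above all vehicle mice in both genes, and in a fit without the filter on low values the log2 fold changes were 0.46 (adjusted p = 0.012) and 0.65 (adjusted p = 0.017).

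In 6 reactions the members include a pair of genes for the same step, and the balance within each pair differed between the groups without overlap. Single genes did not overlap between the groups in 61.8% of all genes tested, and no such share was derived for ratios of other gene pairs. The log2 ratio of Impdh1 to Impdh2 was -4.27, -4.60 and -4.72 in vehicle mice and -2.80, -3.39 and -2.62 in treated mice, a difference of 1.59 (SE 0.27). Impdh2 stayed the more abundant gene in every mouse. The log2 ratio of Ctps to Ctps2 was 1.23, 1.22 and 1.23 in vehicle mice and 0.06, 0.01 and -1.94 in treated mice (difference -1.85, SE 0.66). Ctps was thus about level with Ctps2 in DS-5272 replicates 1 and 2 and below it only in replicate 3. The log2 ratio of Tk1 to Tk2 was 0.95, 0.90 and 0.61 in vehicle mice and -2.31, -1.17 and -3.39 in treated mice (difference -3.11, SE 0.65), and the order of these genes turned in every treated mouse. The differences were -1.09 (SE 0.51) for Prps1 to Prps2, 0.46 (SE 0.22) for Uck1 to Uck2 and -0.47 (SE 0.14) for Nme1 to Nme2. Each of the 6 had p = 0.1 in a two-sided exact permutation test (adjusted p = 0.1 over the 6 pairs), the smallest p that 3 mice against 3 can give, so none could pass the threshold. Without DS-5272 replicate 3 the differences for Ctps to Ctps2 and Prps1 to Prps2 were -1.19 and -0.59, and that for Uck1 to Uck2 was 0.25.

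**Figure D4:**
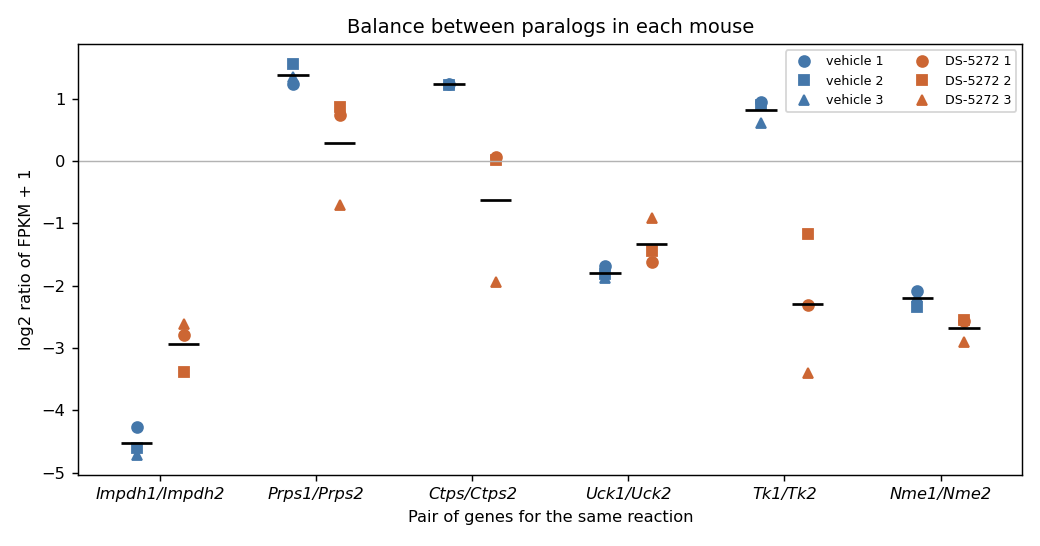
Log2 ratio of FPKM + 1 between the genes of each pair in each mouse, with vehicle in blue, DS-5272 in orange and a bar at each group mean. The ratio of Tk1 to Tk2 is above 0 in all vehicle mice and below 0 in all treated mice.

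A further 52 genes of nucleotide metabolism outside the 37 were listed, and 39 of them were tested. They were spread to both sides, with 13 higher, 11 lower, 15 not past the threshold and a median log2 fold change of 0.02. Among all genes tested, 24.2% were higher, 22.0% were lower and 46.3% passed in either direction. At a common total, 8 of the further genes were higher and 15 lower, and of all genes 1709 were higher and 3565 lower. Among those that were lower, Dctpp1, a dCTP pyrophosphatase, had a log2 fold change of -1.32 (SE 0.23, adjusted p = 0.0062), and Nme4, a mitochondrial nucleoside diphosphate kinase, one of -1.14 (SE 0.21, adjusted p = 0.0074). Dctd, dCMP deaminase, was at -1.26 (SE 0.43, adjusted p = 0.049) and lost its call without any 1 vehicle mouse and without DS-5272 replicate 2 (adjusted p from 0.066 to 0.13), and also with a pseudocount of 0.1 (0.068), without the filter (0.095), at a common upper quartile (0.052) and without the trend (0.051). Without DS-5272 replicate 3 its log2 fold change was -0.75.

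The 4 largest rises were those of Xdh, Nt5e, Mocos and Cmpk2. Xdh, xanthine dehydrogenase, the last step from purines to uric acid, went from 7.98, 8.36 and 6.84 FPKM to 47.3, 46.6 and 85.6 FPKM, a 7.74-fold higher mean (log2 fold change 2.75, SE 0.24, adjusted p = 0.0011). Mocos, the sulfurase that activates the molybdenum cofactor of this enzyme, rose as well (log2 fold change 1.68, SE 0.22, adjusted p = 0.0030). Nt5e, the surface nucleotidase CD73, rose from 0.676, 0.438 and 0.650 FPKM to 5.85, 4.49 and 5.79 FPKM (log2 fold change 2.002, SE 0.15, adjusted p = 0.00069). Its vehicle mean of 0.588 FPKM is under the filter, so Nt5e entered the test only through its level in the treated mice. Cmpk2, a mitochondrial UMP-CMP kinase known as an interferon-induced gene, had a log2 fold change of 1.21 (SE 0.24, adjusted p = 0.0083). For these 4 genes all treated mice were above all vehicle mice.

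Marker genes of other and of more mature cells were compared between the groups as well. Itgam and Csf3r, myeloid surface genes, were at 43.3 FPKM or more in every mouse, but Ly6g of the same list was at 0.160 to 0.264 FPKM with vehicle. Cd3e and Ncr1, defining genes of T and NK cells, were at 0.354 FPKM or less. Other markers of the T-cell and NK-cell lists reached more. Cd4 was at 3.28 and Gzma at 1.95 FPKM in DS-5272 replicate 1, and Nkg7 was at 1.58 FPKM in DS-5272 replicate 3. Of 18 markers of mature neutrophils and monocytes, all 18 were tested and 15 were higher with DS-5272, and their summed level was 1607 to 3911 FPKM with vehicle and 7204 to 24159 FPKM with DS-5272, highest in replicate 3. Of 13 markers of bone marrow macrophages, 12 were tested and 5 were higher (sums of 110.2 to 178 FPKM and 320.1 to 782 FPKM). Of 12 erythroid markers, 3 were tested and 2 were higher (2.68 to 4.98 FPKM and 12.8 to 147 FPKM). Both sums were highest in DS-5272 replicate 1, and Rhag was at 0 in all mice. Among all genes tested, 24.2% were higher. Ly6g and Hba-a2, counted here as higher, had vehicle means of 0.207 and 0.564 FPKM. Those are under the filter, so both genes entered the test only through their level in the treated mice. No T-cell marker reached the filter, and the summed level of these markers was 0.896 to 0.998 FPKM with vehicle and 1.60 to 4.13 FPKM with DS-5272. For the NK-cell markers, of which 1 was tested and not called, the sums were 1.65 to 2.93 and 3.55 to 5.37 FPKM, also without overlap, and for the B-cell markers, again with 1 tested and not called, they were 4.71 to 5.65 and 4.05 to 7.46 FPKM. The part of these differences in the results above was not tested. In bulk RNA, fewer cells that express a gene and less RNA of it per cell cannot be told apart. Exons of 10 tested members overlap another annotated gene, in 8 of them on the opposite strand (Ppat and Paics with each other, Gart, Impdh2, Umps, Tk1, Uck1 and Uck2), and those of Nme1 and Nme2 overlap the read-through gene Gm20390 on the same strand. No source states that strand was used in counting, and fragments of the other gene may be part of these values.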

How the data were processed

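RNA was sequenced as paired ends from strand-specific libraries. According to the submitters' processing notes and the study's methods, the authors trimmed reads with cutadapt 1.8.1, aligned them to GRCm38 reference transcripts with TopHat2 2.1.1 and derived gene FPKM values with Cufflinks 2.2.1. The deposited FPKM values are scaled to transcript length and to mapped fragments and are not counts. Lines that share a symbol were summed (435 names, Tk1 among the members), and the 433 lines that join several genes were kept apart. The 11130 genes whose mean over the 6 samples reached 1 FPKM were compared by limma 3.58.1 in R 4.3.3 (lmFit, eBayes with a trend, two-sided, 3 against 3) on log2(FPKM + 1), with Benjamini-Hochberg adjustment over all of them and a threshold of 0.05. Fold changes are on that scale unless a mean FPKM scale is named, and changes of low genes come out too small on it. The fit was also run on simulated data with the same spread for all genes and both groups and no replicate effect. These data differ in that, so the simulation cannot show how the fit handles the wider spread of treated mice. Python 3.11.15 with pandas 2.3.3, scipy 1.17.1 and matplotlib 3.10.9 was used for the rest.

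Read totals are not part of the table. Read from the steps of low FPKM values (716 genes), depth relative to vehicle replicate 1 was 0.807 and 0.883 in vehicle replicates 2 and 3 and 0.747, 0.651 and 0.54 in DS-5272 replicates 1, 2 and 3, so low values are less precise in treated mice, and no counting intervals were derived. Replicate numbers run from 1 to 3 in both groups. Across genes, same-numbered samples deviated together from their group means (r = 0.66, 0.21 and 0.43, each over the limit of 0.1, against -0.58 to 0.34 for other pairs). Vehicle replicate 2 deviated more with DS-5272 replicate 3 (r = 0.34) than with its own number (r = 0.21). No source names a shared batch, so a pairing would rest on the data alone and was not assumed. The fit without the block is the main one, and counts and changed calls with the block are given beside it.

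The members, gene lists, motifs and tests were chosen with earlier results of these data known. Every tested member is named, along with Rrm2b and the 4 largest rises and the 4 largest falls among the further pathway genes, of which 1 is not reported here. Alternatives were 4 other scalings, no filter on low FPKM or one at 5, a pseudocount of 0.1, the replicate block, no trend, a demand for a log2 fold change of 1 or more in size, the largest line of a symbol, and each mouse left out in turn. Coordinates are from GENCODE M21 and RefSeq.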

Additional observations from a re-analysis of the deposited data

How the results depend on the processing

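Of the 19 lower members, 14 kept their call when each mouse was left out in turn, 16 under all other alternatives apart from the demand for a log2 fold change of at least 1, and 14 under all of these. Of the 3 higher members, 2 did (Samhd1 and Tk2). With each mouse left out, the counts of higher and lower members ranged from 2 to 3 and from 14 to 19. Those of the further pathway genes ranged from 9 to 13 and from 7 to 13. Over all genes, 1654 to 1971 were higher and 1404 to 1677 lower without 1 vehicle mouse, against 2697 and 2451 in the main fit. Without 1 DS-5272 mouse, 2208 to 2920 were higher and 2199 to 2446 lower. With the replicate block, 5 members were higher and 22 lower, against 30.3% and 24.9% of all genes. Without the filter on low FPKM, 5 members were higher and 16 lower, and of all 18149 genes 2651 were higher and 2478 lower. With a log2 fold change of at least 1, 1 member was higher and 13 lower, and of all 11130 genes 978 were higher and 621 lower. Of the further genes, 6 were higher and 4 lower at that demand, against 13 and 11 in the main fit. With no such demand, 8 were higher and 15 lower at a common total (TPM). At a common total the class medians were -1.24 (de novo purine), -0.987 (de novo pyrimidine), -0.631 (salvage), -0.504 (nucleotide kinases) and -0.22 (Ada alone, for nucleoside breakdown), with all genes at -0.20. The kinase median was -0.59 under quantile normalization, and that of nucleoside breakdown was 0.46 without the filter. Signs turned only for genes not past the threshold: Aprt under quantile normalization (-0.0814), Cmpk1 at a common total (-0.116) and under quantile normalization (-0.0511), Ada at a common upper quartile (-0.0360), median ratio (-0.0227), common total (-0.223) and quantile normalization (-0.0234), and Rrm2b at a common upper quartile (-0.0507), median ratio (-0.0387) and common total (-0.221). With each mouse left out, Ada ranged from -0.0520 to 0.115 and Rrm2b from -0.0446 to 0.0400, below 0 without DS-5272 replicate 3 and, for Rrm2b, vehicle replicate 3. The causes were not tested. Beyond the calls given beside the genes, the replicate block changed no call of a named gene. Relative depth was lowest in DS-5272 replicate 3, which limits the precision of its lowest values.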

Other observations

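Some further genes of nucleotide metabolism, chosen after their values were seen, were also higher in DS-5272-treated cells, and 1 was lower. Gda, guanine deaminase, measured 95.2, 115 and 111 FPKM in vehicle mice and 228, 200.1 and 298 FPKM in treated mice (limma, log2 fold change 1.15, SE 0.17, adjusted p = 0.0040). Ampd3, an AMP deaminase, went from 15.5, 17.3 and 19.4 FPKM to 34.8, 33.5 and 54.1 FPKM (log2 fold change 1.15, SE 0.20, adjusted p = 0.0059). Ampd2, a second AMP deaminase gene and the more abundant of the pair with vehicle, was lower instead, at 42.6, 47.5 and 49.7 FPKM with vehicle and 31.4, 36.2 and 29.9 FPKM with DS-5272 (log2 fold change -0.51, SE 0.11, adjusted p = 0.012), and lost its call without vehicle replicate 2 or vehicle replicate 3 (adjusted p = 0.054 and 0.055). Entpd1, the surface ectonucleotidase CD39, went from 34.3, 32.4 and 36.0 FPKM to 53.6, 46.7 and 71.5 FPKM (log2 fold change 0.71, SE 0.16, adjusted p = 0.014), and lost its call without vehicle replicate 2 (adjusted p = 0.055). In Gda, Ampd3 and Entpd1, DS-5272 replicate 3 was the highest mouse and replicate 2 the lowest of the treated mice, and the groups did not overlap in these genes or in Ampd2.

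Dguok, the mitochondrial deoxyguanosine kinase, measured 13.9, 10.1 and 11.5 FPKM in vehicle mice and 21.2, 17.5 and 22.4 FPKM in treated mice (log2 fold change 0.74, SE 0.15, adjusted p = 0.0090), and its adjusted p was 0.075 at a common total. Adk, adenosine kinase, went from 21.5, 23.5 and 23.4 FPKM to 29.4, 36.0 and 37.2 FPKM (log2 fold change 0.56, SE 0.12, adjusted p = 0.010). Like Tk2, both genes had every treated mouse above every vehicle mouse.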
